A study of Sus scrofa with 23 samples.

Results

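The 6 genes described here are the mitochondrially encoded subunits of respiratory complexes III, IV and V. They were chosen by their Ensembl identifiers on the mitochondrial genome, a rule that uses no measured value, and they are COX1 (ENSSSCG00000018075), COX2 (ENSSSCG00000018078), ATP8 (ENSSSCG00000018080), ATP6 (ENSSSCG00000018081), COX3 (ENSSSCG00000018082) and CYTB (ENSSSCG00000018094). They are 6 of 25322 gene rows and 6 of 37 rows of the mitochondrial genome, and all 6 passed the low-count filter in every comparison.

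RNA was sequenced from backfat, which lies under the skin, of 23 crossbred fattening pigs, both gilts and barrows. Group I (-cDDGS+rapeseed oil) was the control and held 7 pigs (4 females, 3 males). The other groups were fed cDDGS, the dried corn residue of ethanol production, together with rapeseed oil in group II (6 pigs, 3 females and 3 males), beef tallow in group III (5 pigs, 2 females and 3 males) or coconut oil in group IV (5 pigs, 3 females and 2 males). Groups I and II therefore shared the added oil and differed in cDDGS, whereas groups III and IV differed from group I in both. The study also reports more crude fat, more fiber and less starch in the cDDGS diets than in the control diet. Each library came from 1 pig and each pig gave 1 library. The spread between samples therefore joins differences between animals with those of RNA quality and library preparation, which cannot be told apart.

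The respiratory chain moves electrons to oxygen and uses the energy to pump protons across the inner mitochondrial membrane, and ATP synthase uses that gradient to make ATP. Most of its subunits are encoded in the nucleus, and a small set at the core of the complexes is encoded by the mitochondrial genome and made inside the organelle. COX1, COX2 and COX3 form the catalytic core of complex IV, cytochrome c oxidase, with COX1 carrying the haem and copper centre where oxygen is reduced and COX2 receiving electrons from cytochrome c. CYTB is the only mitochondrially encoded subunit of complex III and binds the quinones. ATP6 and ATP8 belong to the membrane part of ATP synthase, complex V, where ATP6 lines the proton path. The mitochondrial strands are transcribed as long precursors that are cut into single RNAs, many of them at the transfer RNAs that lie between the genes, and ATP8 and ATP6 stay together on 1 messenger. White fat cells hold fewer mitochondria than muscle or brown fat.

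In the RefSeq annotation of Sscrofa11.1, the build that the study names, COX1 lies on chromosome MT from 6511 to 8055, COX2 from 8203 to 8890, ATP8 from 8959 to 9162, ATP6 from 9120 to 9800, COX3 from 9800 to 10583 and CYTB from 15342 to 16481. The count files carry no coordinates, and it is not given in the sources used here whether the reads were counted within exactly these limits. The genes have no introns. COX1, COX2 and CYTB each have a transfer RNA on both sides, whereas ATP8 and ATP6 share 43 bases, which are 21.1% of ATP8 and 6.31% of ATP6, and ATP6 and COX3 share 1 base. A read that covers 2 genes is set aside as ambiguous in counting of this kind, so ATP8 is the member most exposed to that loss.

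Reads counted on genes numbered 2437172 to 7979426 per pig (median 4717511). The 6 members received 91992 to 445157 reads, 2.93 to 7.09% of these counts, and all mitochondrial rows together 32.7 to 54.5%, of which the 12S and 16S ribosomal RNAs made up most with 25.0 to 44.4% of gene counts. The members' smallest count was 3167 reads (ATP8, pig 21), so counting error is small beside the differences between pigs. RNA was partly degraded according to the study. Among reads mapped to 1 place, 51.1 to 71.3% lay outside annotated genes, with medians of 56.0% (I), 62.2% (II), 56.4% (III) and 61.9% (IV). Markers were read as sums per 1e6 counts of genes outside the mitochondrial genome. The 4 adipocyte markers with an identifier (PLIN1, CIDEC, PPARG and LIPE) were detected in every pig, with sums of 3312 to 4977. The 5 skeletal muscle markers ranged from 8.22 to 4436, the 5 macrophage markers from 56.0 to 581, the 2 erythrocyte markers from 22.9 to 80.1, the 2 endothelial markers from 839 to 1962 and the 4 fibroblast markers from 9256 to 30938. PPARGC1A, the only brown or beige fat marker with an identifier, had 0 reads in all 23 pigs. Because these are bulk samples, fewer mitochondria per cell, fewer cells of a type and less of each RNA cannot be told apart.

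The levels are given as CPM, counts per 1e6 reads after TMM normalization. For COX1, group I ranged from 14041 to 23935 CPM with a median of 20969. Group II ranged from 10986 to 21407 CPM with a median of 16719. In group III the 5 pigs stood at 16226, 18336, 21915, 21918 and 31345 CPM, and in group IV at 13311, 17692, 19500, 19618 and 19754 CPM. The COX1 ranges of all 4 groups overlapped, and the top of group III was a single pig, number 48.

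COX2 ranged from 3995 to 8389 CPM in group I (median 6207) and from 3079 to 9105 CPM in group II (median 6824). Group III held 5927, 7249, 7269, 9445 and 11763 CPM, and group IV held 3195, 7734, 7989, 7994 and 11219 CPM. COX2 was the member with the widest spread within group II, where its coefficient of variation was 37.3%, against 26.6% for COX1.

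COX3 ranged from 5493 to 13120 CPM in group I (median 7734) and from 4674 to 12642 CPM in group II (median 9265). The 5 pigs of group III lay close together at 10658, 11115, 11312, 13232 and 14442 CPM (mean 12151 ± 1614, SD, n = 5), while group IV spread over 5370, 8675, 9681, 10909 and 13219 CPM. Every pig of group III was above the median of group I, although the ranges overlapped.

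CYTB, the complex III subunit, ranged from 4314 to 7562 CPM in group I (median 6092) and from 3020 to 7081 CPM in group II (median 5616). Group III held 5505, 7264, 7543, 7688 and 9426 CPM and group IV 4473, 5178, 5411, 5858 and 7281 CPM. Group III had 4 pigs above the highest pig of group II, and the fifth, pig 43, fell inside its range.

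ATP6 ranged from 5938 to 9323 CPM in group I (median 7615) and from 3966 to 8970 CPM in group II (median 7399), with 7079, 8634, 9722, 10641 and 13691 CPM in group III and 4629, 7192, 8137, 9324 and 11498 CPM in group IV. Its neighbour ATP8 was the least counted member and ranged from 1061 to 1976 CPM in group I (median 1402) and from 917 to 2149 CPM in group II (median 1775). ATP8 stood at 1508, 1789, 1797, 2301 and 3206 CPM in group III and at 1190, 1793, 1983, 2633 and 3534 CPM in group IV. ATP8 had the highest pig of the whole series in group IV (pig 49), whereas the other 5 members had theirs in group III (pig 48). Pig 21 of group II was lowest for all 6 members, and the highest pig exceeded it 2.85-fold for COX1 and up to 3.85-fold for ATP8.

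**Figure D1:**
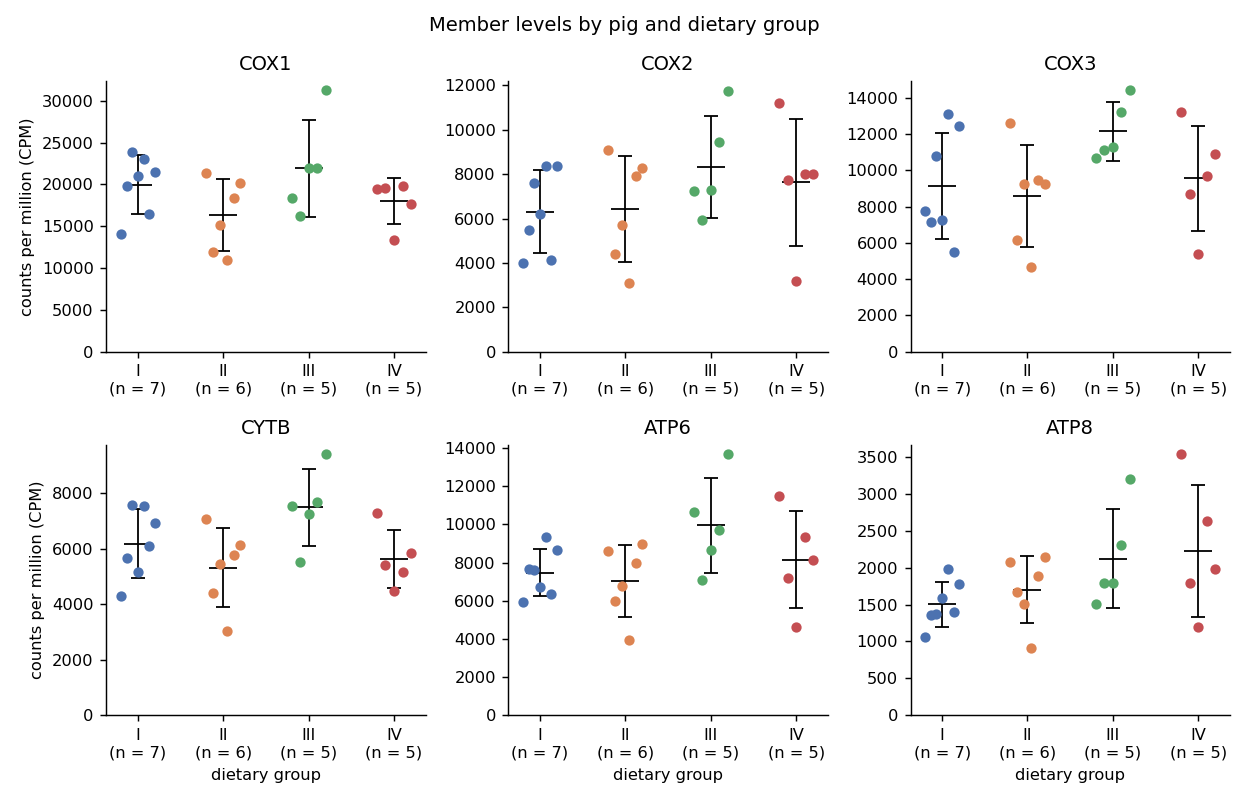
CPM of each of the 6 members (vertical axes, each from 0) in the 4 dietary groups, 1 point per pig, with the group mean (horizontal line) and its standard deviation (bars). The groups overlap for every member, and pig 48 of group III is the highest point in 5 of 6 panels.

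The members varied together from pig to pig. Over the 23 pigs, Pearson's r of their log2 CPM, a description since all share the pig, the library and the scaling, ran from 0.645 (COX1 with ATP8) to 0.925 (COX2 with ATP6). After each group's mean was taken off, the same pairs had r of 0.779 and 0.932. The physical neighbours ATP8 and ATP6, which share a messenger, had r = 0.844. Together the members held 50.3 to 57.6% of the reads on the 13 mitochondrial protein-coding genes, the rest being the complex I subunits ND1 to ND6 and ND4L. The ratio of the summed members to the 12S and 16S ribosomal RNAs ran from 0.0816 to 0.187.

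The effect of cDDGS under the same oil was read from group I against group II. On the log2 scale, group II minus group I, the differences were -0.29 ± 0.21 (SE) for COX1, 0.02 ± 0.26 for COX2, -0.09 ± 0.25 for COX3, -0.22 ± 0.20 for CYTB, -0.08 ± 0.20 for ATP6 and 0.17 ± 0.19 for ATP8. None of the 6 members was called at an adjusted p under 0.05 and a fold change above 1.3 (edgeR's quasi-likelihood test, Benjamini-Hochberg over all genes, adjusted p from 0.566 to 0.979), and 0 of 6 had an unadjusted p under 0.05. Of all genes tested, edgeR called 0.0291%, DESeq2 1.19% and limma-voom 0.0387%, and 13.0% had an unadjusted edgeR p under 0.05. DESeq2 and limma-voom also called 0 members. With the share of reads outside genes as a covariate, COX1 went from -0.29 to 0.00 and COX2 from 0.02 to 0.40, with no call. Without pig 21, CYTB was -0.10 and ATP8 0.30.

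Nuclear partners of the members were counted in the same fit. All 7 nuclear complex IV subunits with an identifier (of 14 listed) had negative log2 differences, with a median of -0.45, and so had all 6 of complex III (of 9 listed, median -0.52), compared with a median of -0.09 over the 6 members and 0.00 over all genes. The lowest p values among them belonged to COX7A2, a small complex IV subunit (-0.78 ± 0.17), and UQCRFS1, the Rieske iron-sulphur protein of complex III (-0.72 ± 0.16), each with an adjusted p of 0.156. Of the 6 nuclear subunits of ATP synthase with an identifier, 4 were negative, with a median of -0.25. None of the 19 was called by edgeR, and 3 of each complex had an unadjusted edgeR p under 0.05, whereas DESeq2 called 2 of them, COX7A2 and UQCRFS1 (each with an adjusted p of 0.0107). The macrophage marker sums were 56.0 to 260 in group I and 248 to 581 in group II (4 of 4 tested positive, median 1.08, 4 with an unadjusted p under 0.05, 0 called by edgeR, while DESeq2 called C1QA and MRC1), and their part in these values was not tested.

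Beef tallow with cDDGS, group III against group I, gave positive values for all 6 members. They were 0.14 ± 0.20 for COX1, 0.40 ± 0.23 for COX2, 0.41 ± 0.22 for COX3, 0.28 ± 0.18 for CYTB, 0.42 ± 0.18 for ATP6 and 0.49 ± 0.19 for ATP8 (log2, SE), that is, folds of 1.10 to 1.41. Without pig 48, COX1 was -0.03, COX2 0.24, CYTB 0.18, ATP6 0.27 and ATP8 0.30. None was called by edgeR (adjusted p from 0.563 to 0.911, Benjamini-Hochberg), DESeq2 or limma-voom, where 0%, 0.120% and 0% of all genes were called. ATP8 and ATP6 had an unadjusted edgeR p under 0.05, as had 7.96% of all genes. The exact permutation test of log2 CPM, two-sided and unadjusted over 42 such tests, gave p = 0.0366 for ATP8 and p = 0.0391 for ATP6. Scaled without the 12S and 16S rows, the exact permutation p of ATP8 was 0.0505.

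In that comparison the nuclear subunits did not take the members' sign. Of 7 nuclear complex IV subunits 6 were negative (median -0.13), of 6 in complex III 5 were negative (median -0.25) and of 6 in complex V 4 were negative (median -0.14), whereas the median of the members was 0.41. The 7 mitochondrial complex I subunits were all positive, with a median of 0.32. The skeletal muscle markers had positive values in group III (4 of 4 tested positive, median 0.76, 0 with an unadjusted edgeR p under 0.05), with a median sum of 691 against 185 in group I. The fibroblast markers were 4 of 4 negative (median -0.40, 2 with an unadjusted p under 0.05) and the macrophage markers 4 of 4 positive (median 0.40, 1 with an unadjusted p under 0.05), with 0 called by edgeR or DESeq2, and their part was not tested. With the logarithm of the muscle sum as a covariate, ATP8 was 0.46 (0.49 without it) and ATP6 0.41 (0.42 without it), and no member was called.

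Coconut oil with cDDGS, group IV against group I, gave ATP8 the largest value of the 6 members. Its difference was 0.57 ± 0.23 (log2, SE), a fold of 1.48, with an adjusted p of 0.278 in edgeR's quasi-likelihood test (Benjamini-Hochberg) and an exact permutation p of 0.0808. The other values were -0.15 ± 0.19 for COX1, 0.28 ± 0.27 for COX2, 0.07 ± 0.26 for COX3, -0.13 ± 0.18 for CYTB and 0.13 ± 0.21 for ATP6. No member was called by edgeR, DESeq2 or limma-voom, which called 0%, 1.27% and 0% of all genes, and 1 of 6 had an unadjusted edgeR p under 0.05 against 14.2% of all genes. Pig 53 was the lowest of group IV for all 6 members, and without it the ATP8 difference was 0.73 with an edgeR adjusted p of 0.0750. Pig 49 had the highest ATP8, and without it the difference was 0.34 with an edgeR adjusted p of 0.601, and COX2 was 0.09. With the share of reads outside genes as a covariate, ATP8 was 0.26 ± 0.31 and COX2 0.10 ± 0.41. Of the nuclear subunits, DESeq2 called COX8A of complex IV (-0.59 ± 0.17, adjusted p = 0.0419), and edgeR called none.

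The 16 pigs fed cDDGS were also set together against group I. ATP8 was at 0.41 ± 0.19 (log2, SE, adjusted p = 0.300 in edgeR's quasi-likelihood test), COX2 at 0.23 ± 0.22, ATP6 at 0.15 ± 0.18, COX3 at 0.13 ± 0.20, CYTB at -0.02 ± 0.16 and COX1 at -0.10 ± 0.16. edgeR called 0%, DESeq2 1.54% and limma-voom 0.474% of all genes and none of them a member. The study's text names COX1, without an identifier, among genes upregulated in group I in this comparison. In DESeq2 the mitochondrial COX1 row had the same direction here but was not called (-0.10 ± 0.15, adjusted p = 0.806). The share of genes with an unadjusted edgeR p under 0.05 was 15.8%, and ATP8 was the 1 member among 6. Among the cell type markers, edgeR called none there, and DESeq2 called the adipocyte marker CIDEC (-0.41 ± 0.12) and the macrophage marker C1QA (1.14 ± 0.29).

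The direct comparisons of the fats, all with cDDGS, had their largest median over the members, 0.47, between groups II and III. Group III minus group II was 0.43 ± 0.24 for COX1, 0.38 ± 0.28 for COX2, 0.51 ± 0.24 for COX3, 0.50 ± 0.22 for CYTB, 0.50 ± 0.23 for ATP6 and 0.32 ± 0.24 for ATP8 (log2, SE), folds of 1.25 to 1.42. None passed the edgeR test (adjusted p from 0.782 to 0.904, Benjamini-Hochberg), although COX3 and CYTB were under 0.05 before adjustment, as were 6.22% of all genes. The exact permutation test gave p = 0.0325 for COX3 and p = 0.0346 for CYTB, unadjusted. edgeR called 0%, DESeq2 0.247% and limma-voom 0% of all genes, and none of them a member. The share of reads outside genes overlapped between group II (54.5 to 69.2%, median 62.2%) and group III (51.1 to 60.8%, median 56.4%). With that share as a covariate the 6 values went to -0.05 (COX2) through 0.20 (ATP6), and its part in them was not tested. Without pig 48, COX1 was 0.26, COX2 0.22 and ATP8 0.12. In the same comparison the macrophage list was 4 of 4 negative (median -0.64, 2 with an unadjusted p under 0.05), the fibroblast list 4 of 4 negative (median -0.50, 2 with an unadjusted p under 0.05) and the skeletal muscle list 5 of 5 positive (median 1.17, 0 with an unadjusted p under 0.05). None of these markers was called by edgeR or DESeq2, and their part was not tested.

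Group IV minus group II ran from 0.08 (CYTB) to 0.38 (ATP8) on the log2 scale, with standard errors of 0.22 to 0.33. In the comparison of group IV with group III, 5 of 6 values were negative, from -0.41 ± 0.20 for CYTB to -0.12 ± 0.30 for COX2, and ATP8 stood at 0.07 ± 0.28. No member reached an unadjusted edgeR p under 0.05 in either comparison, against 4.99% and 4.12% of all genes. edgeR and limma-voom called 0% of genes in both, DESeq2 called 0.0116% in II vs IV and 0% in III vs IV, and no member was among them. The comparisons that share a group share its pigs, so the values above are not independent of each other.

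**Figure D2:**
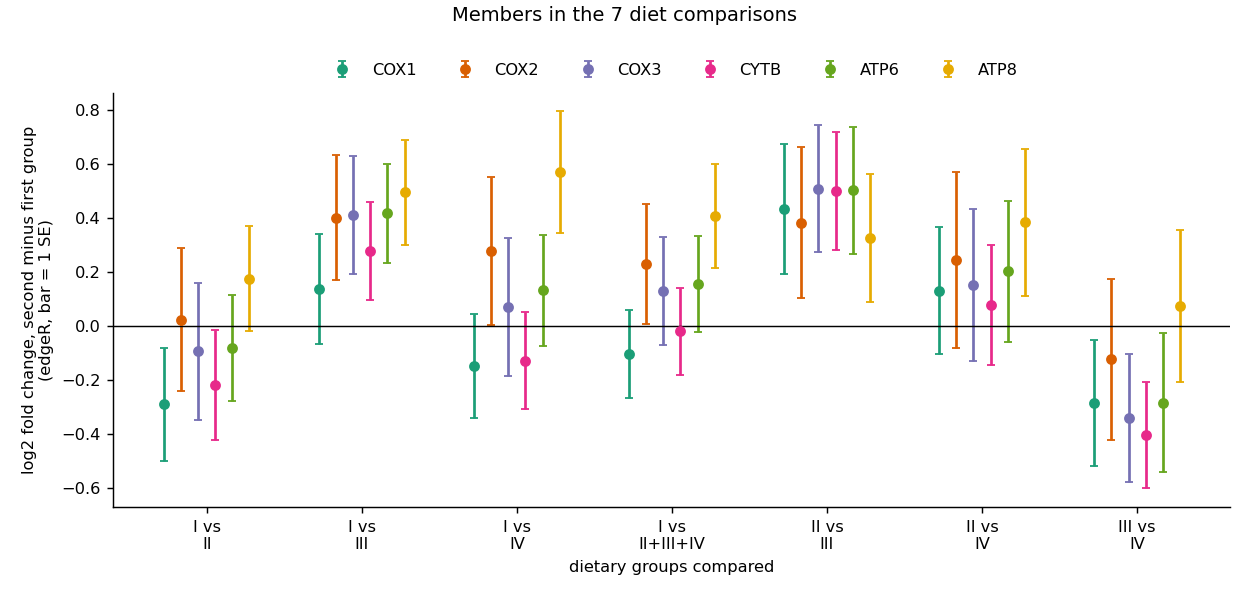
Log2 fold change of each member (vertical axis, second-named minus first-named group, from edgeR) in the 7 diet comparisons, with bars of 1 standard error. All 6 points are above 0 for I vs III, II vs III and II vs IV, and ATP8 is the highest point in every comparison but II vs III.

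With library sizes and factors computed without the 12S and 16S rows, no member's log2 difference changed sign in any diet comparison or between the sexes, whereas with library size alone ATP6 and COX3 turned sign in I vs II. Library size alone moved the median of all genes to 0.11 in I vs II and to -0.18 in II vs III. The summed members differed by -0.19 (II), 0.29 (III) and 0.01 (IV) from group I on the log2 scale, against a standard deviation between pigs within groups of 0.36. Single pigs weighed on these sums, which were -0.04 for II without pig 21, 0.18 for III without pig 48, and -0.10 without pig 49 to 0.16 without pig 53 for IV. With library size alone the value for II was -0.08.

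Because a ratio of 2 members within a pig does not depend on the scaling of the library, 5 ratios were compared in the 7 comparisons. ATP8 per ATP6 read ranged from 0.178 to 0.237 in group I (median 0.206) and from 0.221 to 0.279 in group II (median 0.237). The 5 pigs of group III had ratios of 0.142, 0.208, 0.234, 0.237 and 0.253, and those of group IV had 0.244, 0.249, 0.257, 0.282 and 0.307. All pigs of group IV lay above all pigs of group I, the only one of 35 ratio comparisons in which the groups did not overlap. ATP8 and ATP6 share a messenger, so this ratio compares reads on 2 parts of it. It cannot be read as the levels of 2 separate messengers.

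The ATP8/ATP6 ratio of group IV minus that of group I was 0.41 on the log2 scale (exact permutation p = 0.00253, two-sided, with 792 regroupings, adjusted p = 0.0884 over 35 tests). Against group I it was 0.26 in group II (exact permutation p = 0.00874, adjusted p = 0.153) and 0.07 in group III (exact permutation p = 0.640, adjusted p = 0.937). None of the 35 had an adjusted p under 0.05, and 7 had an unadjusted p under 0.05. Pig 41 of group III, with the lowest ratio of all pigs at 0.142, decided that count. Without it the permutation adjusted p was 0.00883 for the pigs fed cDDGS against group I, where it was 0.162 with that pig. Group IV against group I holds no pig 41, so its exact permutation p stayed at 0.00253. Only its adjusted p moved, from 0.0884 to 0.0442, through the joint adjustment over the ratio tests. The difference of group III from group I, 0.07 with pig 41, was 0.21 without it (permutation adjusted p = 0.276). Reads set aside as ambiguous, which include reads across the ATP8 and ATP6 overlap, had medians of 0.505% of uniquely mapped reads (I), 0.457% (II), 0.522% (III) and 0.433% (IV), and their part in the ratio was not tested. Reads outside genes had medians of 56.0% (I), 62.2% (II), 56.4% (III) and 61.9% (IV). Their part in the ratio was not tested either.

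The COX2/COX1 ratio, within complex IV, ranged from 0.251 to 0.390 in group I (median 0.296) and from 0.280 to 0.432 in group II (median 0.394). It was 0.332, 0.365, 0.375, 0.395 and 0.431 in group III and 0.240, 0.394, 0.405, 0.452 and 0.575 in group IV. The groups overlapped, and the lowest and the highest ratio of all pigs were both in group IV (pigs 53 and 49). The log2 difference from group I was 0.30 for II (exact permutation p = 0.0443), 0.30 for III (exact p = 0.0278), 0.37 for IV (exact p = 0.0960) and 0.32 over all cDDGS pigs (exact p = 0.0163). All had adjusted p values of 0.162 or more, so none passed over the 35 tests.

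**Figure D3:**
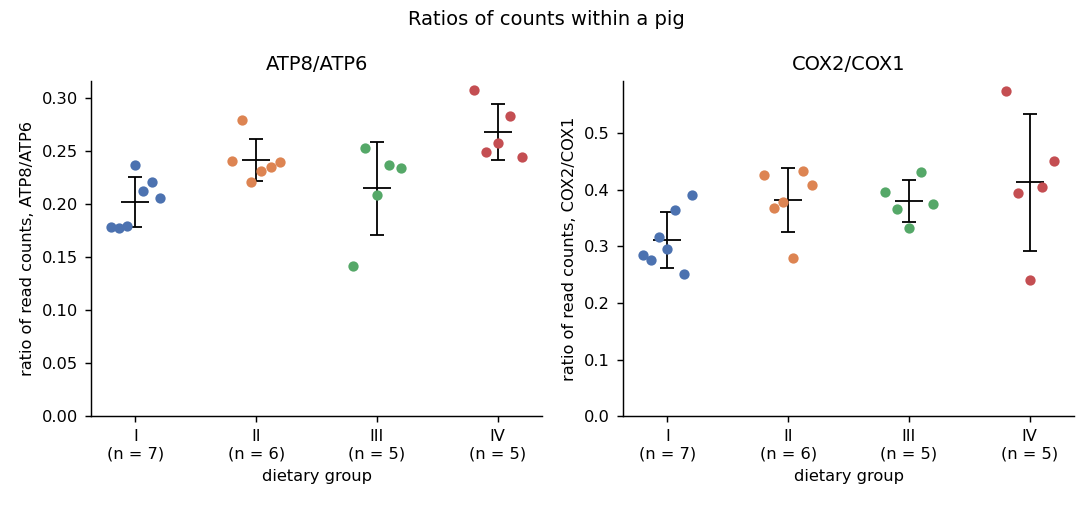
Ratio of read counts of ATP8 to ATP6 (left) and of COX2 to COX1 (right) in each pig (vertical axes, from 0) by dietary group, with group means and standard deviations. In the left panel the 5 points of group IV (0.244 to 0.307) lie above the 7 of group I (0.178 to 0.237).

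Levels of different genes were compared per length, as CPM per kilobase of gene. COX3 had a mean of 12426 ± 3600 (SD, n = 23), COX1 12309 ± 2869, ATP6 11819 ± 3188, COX2 10266 ± 3391, ATP8 9049 ± 3069 and CYTB 5369 ± 1265. Neighbours in this order were compared within pigs by a permutation test of signs with 100000 resamples and adjustment over the 5 pairs. COX3 and COX1 did not differ beyond their spread (adjusted p = 0.822, COX3 higher in 13 of 23 pigs), nor did COX1 and ATP6 (adjusted p = 0.175). ATP6 exceeded COX2 1.18-fold (permutation adjusted p = 7e-05), COX2 exceeded ATP8 1.12-fold (adjusted p = 0.0119) and ATP8 exceeded CYTB 1.65-fold (adjusted p = 5e-05, the smallest these resamples can give for 5 pairs). CYTB was last in 23 of 23 pigs, whereas the first place went to COX3 in 10 pigs, COX1 in 8, ATP6 in 4 and ATP8 in the remaining pig, number 49.

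That order rests partly on the length used for each gene. Where the bases in 2 genes were taken off the lengths, leaving 161 for ATP8 and 637 for ATP6, ATP6 came first with 12636 CPM per kilobase and ATP8, with 11466, stood above COX2 (permutation adjusted p = 0.0122). CYTB stayed last under both lengths. Only the lengths were changed and no reads were recounted, so the order of ATP8 and COX2 cannot be decided from these values.

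**Figure D4:**
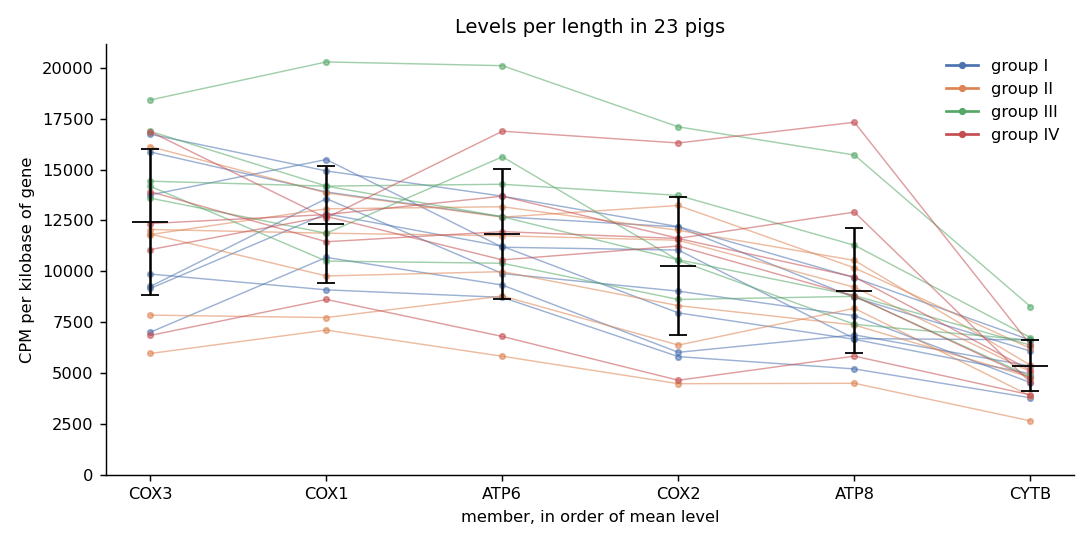
CPM per kilobase of gene (vertical axis, from 0) for the 6 members in order of their mean, with 1 line per pig coloured by dietary group, and the mean and standard deviation over 23 pigs in black. All lines drop to CYTB, which is the lowest member in 23 of 23 pigs.

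Between the sexes, with dietary group in the fit, all 6 members had positive values in males. The differences (male minus female, log2, SE) were 0.29 ± 0.13 for COX1, 0.37 ± 0.19 for COX2, 0.25 ± 0.17 for COX3, 0.17 ± 0.14 for CYTB, 0.27 ± 0.15 for ATP6 and 0.28 ± 0.16 for ATP8. None was called by edgeR (adjusted p from 0.260 to 0.531, Benjamini-Hochberg), DESeq2 or limma-voom, which called 0.954%, 2.20% and 0.740% of all genes. Only COX1 was under 0.05 before adjustment, as were 17.7% of all genes. With library size alone, which moved the median of all genes to -0.18, the values were 0.15 for COX1, 0.24 for COX2, 0.11 for COX3, 0.03 for CYTB, 0.13 for ATP6 and 0.13 for ATP8, none of them with an unadjusted p under 0.05. COX1 ranged from 10986 to 23935 CPM in the 12 females (median 17098) and from 15096 to 31345 CPM in the 11 males (median 20195).

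Skeletal muscle markers had positive values in males too (4 of 4 tested positive, median 2.42 on the log2 scale, 4 with an unadjusted p under 0.05, 0 called by edgeR, while DESeq2 called TNNC2, DES and TNNT1), whereas of the fibroblast markers COL1A2, a collagen chain, was called lower in males (-0.82 ± 0.18, edgeR adjusted p = 0.0282). With the summed muscle markers as a covariate, COX1 was 0.23 and CYTB 0.20, and no member was called. A difference between females and males in the effect of cDDGS was not detectable for any member (interaction from -0.29 ± 0.39 for COX3 to 0.19 ± 0.30 for COX1, edgeR adjusted p = 0.9999 for all 6). No gene was called there (0%), and 3.63% of genes and 0 members had an unadjusted p under 0.05.

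RNA quality was read from 3 measures, the RNA integrity number, the share of reads outside genes and the share of reads mapped to several places, giving 18 correlations with the members' log2 CPM across 23 pigs. COX1 was lower where more reads lay outside genes, with Pearson's r = -0.608 (permutation p = 0.00227, adjusted 0.0204) and Spearman's rho = -0.608 (permutation p = 0.00267, adjusted 0.0481, and adjusted 0.0668 when scaled without the 12S and 16S rows). CYTB had r = -0.603 (permutation p = 0.00227, adjusted 0.0204) and rho = -0.443 (permutation p = 0.0351, adjusted 0.158). Without the 2 pigs farthest from the median share, r was -0.655 for COX1 and -0.479 for CYTB. Within group I the values were -0.498 for COX1 and -0.148 for CYTB, and within group II -0.828 and -0.854. Groups III and IV held only 5 pigs each, so their pigs are described in place of a coefficient. In group III the pig with the lowest share, number 48 (51.1%), had the highest COX1 and CYTB. Group IV ran the other way for COX1, since pig 53 had the lowest share (57.7%) and the lowest COX1 (13311 CPM), and pig 54 the highest share (71.3%) and the highest COX1 (19754 CPM). The other 16 correlations had adjusted Pearson p values of 0.151 or more, all those with the RNA integrity number among them.

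**Figure D5:**
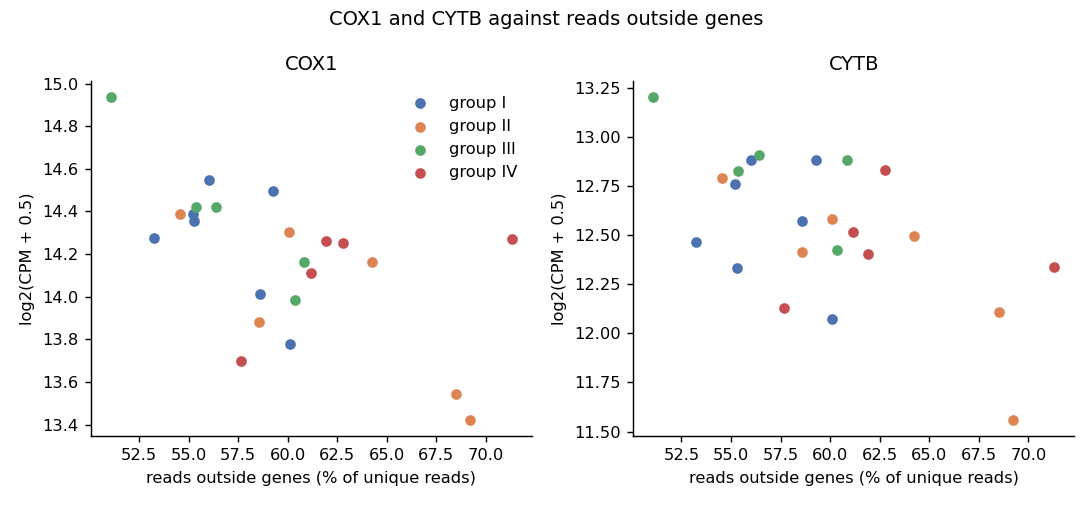
Log2(CPM + 0.5) of COX1 (left) and CYTB (right) against the share of uniquely mapped reads that lay outside annotated genes (horizontal axes, percent), 1 point per pig, coloured by dietary group. Pig 21 of group II (69.2%) is the lowest point in both panels, and pig 48 of group III (51.1%) the highest.

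Among 11023 genes outside the mitochondrial genome, the pattern over 23 pigs most like that of the summed members was that of SAR1B, a small GTPase of vesicle export from the endoplasmic reticulum (r = 0.913, median 38.0 CPM). RABEP1, which works with RAB5 in endosome fusion, had r = 0.859, UFL1, a ligase of the ubiquitin-like UFM1, had r = 0.838, TMEM87A, a Golgi membrane protein, had r = 0.834, and CUX1, a homeobox gene, had r = 0.830. These are descriptions over the pigs, picked as the 5 highest of many, with no test. With scaling by genes outside the mitochondrial genome the first 4 were the same genes in the same order.

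The remaining lists of partner genes held no edgeR call in any diet comparison. DESeq2 called GFM1, a mitochondrial translation elongation factor, in I vs II (-0.48 ± 0.14, adjusted p = 0.0491) and in I vs II+III+IV (-0.45 ± 0.11, adjusted p = 0.0146), and in the latter also COX15, a haem A synthesis gene (-0.65 ± 0.18, adjusted p = 0.0274), and UQCRQ of complex III (-0.63 ± 0.16, adjusted p = 0.0225). For assembly of complexes III to V (7 of the 10 genes with an identifier tested), the medians in groups II, III and IV against group I were -0.10, 0.07 and 0.07. For genes that express the mitochondrial genome (16 of 18 tested), such as LRPPRC, which stabilises mitochondrial messengers, they were -0.14, -0.10 and -0.24, with 15 of 16 negative in group IV and 4 of them at an unadjusted p under 0.05, against 14.2% of all genes. For 5 genes of mitochondrial mass, such as the outer membrane channel VDAC1, the medians were -0.41, -0.12 and -0.27. The median of all genes lay between -0.01 and 0.00 in these comparisons.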

How the data were processed

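Total RNA with ribosomal RNA depletion was sequenced from 1 backfat sample of each of 23 pigs. Per the labels and the study, the authors trimmed reads with FLEXBAR, mapped them with TopHat and deposited raw HTSeq counts per Ensembl gene. The study names a version for the demultiplexing software only, and states that libraries were pooled and sequenced in replicate runs on 1 flow cell. Which libraries shared a pool, and the strand setting, are not given in the sources used here. RNA integrity numbers came from the sample characteristics in the study's supplement. Groups came from the labels, where each pig number occurs once, and each pig was taken as 1 sample. Over 56 pairs of pigs within groups the lowest chi-square per degree of freedom was 7.02, so no pair looked like repeat counts of 1 library. Separate libraries of the same animal would not be found in this way.

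Counts were fitted with edgeR 4.0.16 in R 4.3.3 (TMM, filterByExpr, quasi-likelihood test) on only those pigs whose groups were compared, and p was adjusted over all genes tested (Benjamini-Hochberg). Genes were called at an adjusted p under 0.05 and a fold change above 1.3. A log2 fold change is the second group minus the first, and SE is its size over the root of F. CPM were used as log2(CPM + 0.5) in exact permutation tests. The 5 HTSeq summary rows stayed out of library sizes. DESeq2 1.42.0 and limma-voom (limma 3.58.1), other scalings, filters and covariates, and fits without each pig were alternatives. The skeletal muscle marker covariate was not planned beforehand. The scripts were tested on simulated data. The genes named are the 6 members, lists of nuclear subunits, assembly, expression and mass genes and cell type markers, and the 5 genes most like the summed members. The rule for the members uses no measured value, but both the members as a subject and the lists were chosen with earlier results of these data known. COX7A2, UQCRFS1, COL1A2, LRPPRC, VDAC1 and the genes named as called by DESeq2 were picked from their lists after their values were seen.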

Additional observations from a re-analysis of the deposited data

Results flagged for a closer look

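In 44 sets of values of 5 to 7 pigs, 1 held a pig far from the others, where chance gives about 1 in 20. It was the ATP8/ATP6 ratio in group II (+cDDGS+rapeseed oil), where pig 19 stood at 0.2789 and the nearest of the other 5 pigs at 0.2406. That gap was 0.66 of the range of the 6 pigs, above the critical value of Dixon's test for 6 values.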

How the results depend on the processing

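No member was called under any of 654 alternative fits (lowest adjusted p 0.165) or 552 fits without 1 pig (lowest 0.0750), of which 17 and 25 turned sign. The interaction with sex was fitted once. No paired analysis was possible because no pig number occurs in more than 1 group.

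With the share of reads outside genes as a covariate, the log2 values that turned sign were, for I vs II, COX1 0.0019, ATP6 0.1661, COX3 0.2012 and CYTB 0.0457, for I vs IV, ATP6 -0.0951 and COX3 -0.1164, for I vs II+III+IV, COX1 0.0474 and CYTB 0.1405, and for II vs III, COX2 -0.0523 and ATP8 -0.0335. COX2 in I vs II was -0.0003 in limma-voom, -0.0052 with sex, -0.0875 with RIN and -0.0819 with sex and RIN, and COX1 in I vs III was -0.0461 with sex and RIN. With library size alone, I vs II gave ATP6 0.0202 and COX3 0.0174, and by permutation COX2 0.0873 and COX3 0.0053. The cause was not tested.

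Without 1 pig, values that turned sign ranged in I vs II from -0.0941 to 0.1662 (COX2), -0.1561 to 0.0412 (ATP6) and -0.2293 to 0.032 (COX3), in I vs III from -0.0292 to 0.2276 (COX1), in I vs IV from -0.0257 to 0.2779 (ATP6) and -0.0765 to 0.2178 (COX3), in I vs II+III+IV from -0.094 to 0.037 (CYTB), in II vs IV from -0.0434 to 0.1801 (CYTB) and in III vs IV from -0.307 to 0.0714 (COX2) and -0.1569 to 0.2691 (ATP8). The number of ratios with an adjusted p under 0.05 ranged from 0 to 1 in I vs IV and in I vs II+III+IV, with 1 reached without pig 41. In I vs IV, which does not hold that pig, the change came only from the joint adjustment over the ratio tests.

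Over all genes, edgeR called 3 in I vs II and 0 in the other diet comparisons, whereas DESeq2 called 96 in I vs II, 13 in I vs III, 133 in I vs IV, 155 in I vs II+III+IV, 25 in II vs III and 2 in II vs IV, and limma-voom called 51 in I vs II+III+IV. Between the sexes edgeR called 98 and DESeq2 252.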
